A study of Homo sapiens with 6 samples.

Results

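The IGF binding proteins and their receptors were followed in PC3-ML cells after a day of CDK4 and CDK6 inhibition. They were the 7 binding protein genes IGFBP1 to IGFBP7 and the 3 receptor genes IGF1R, IGF2R and INSR, so 10 genes of the 22375 measured. IGFBP5 was chosen by its higher values on the PD 0332991 arrays than on the DMSO arrays. The other 9 were taken for their place in the family, although earlier results of these data were known. The change of IGFBP5 is therefore given below as a description, without a test. PC3-ML cells descend from the human prostate cancer line PC-3 and were obtained for their metastatic growth. Total RNA of 3 samples treated with 500 nM PD 0332991 in DMSO for 24 h and of 3 treated with the DMSO vehicle alone was hybridised to 6 expression arrays, and all cells were grown in medium with serum. PD 0332991, also called palbociclib, inhibits CDK4 and CDK6, the kinases that phosphorylate the retinoblastoma protein before S phase.

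Insulin-like growth factors (IGFs) circulate bound to the secreted IGF binding proteins, which hold the ligand away from its receptor or carry it there. IGF1R is the receptor tyrosine kinase that transmits the growth signal, INSR is the closely related insulin receptor, and IGF2R, the cation-independent mannose 6-phosphate receptor, takes up IGF2 for breakdown in lysosomes. Several of the binding proteins, among them IGFBP3, IGFBP5 and IGFBP7, also act outside IGF binding and are known as secreted products of cells that have left the cell cycle.

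The deposited value of a gene is 1 number per array on a log2 scale. The array medians over all genes lay between 5.33 and 5.37, and Pearson correlations across genes, which are not independent replicates, were at least 0.9977 within a group and at most 0.9948 between groups. The drug response was present on these arrays: the proliferation gene MKI67 averaged 7.80 ± 0.072 with PD 0332991 and 12.28 ± 0.016 with DMSO (SD, n = 3 each), and CCNA2, CDK1, TOP2A and RRM2 fell too, RRM2 with a log2 change of -3.25 (limma adjusted p at most 4.03e-06). The epithelial markers KRT8, KRT18 and KRT19, EPCAM, CDH1 and ITGB4, and the mesenchymal marker VIM, which PC-3 cells also express, all lay above the median gene level. ITGB4 rose by 1.21, KRT19 by 0.41 and KRT8 by 0.31 with PD 0332991, and VIM had a change of -0.24 and also passed the threshold. The calls of KRT8 and VIM were lost without some single arrays (KRT8 without DMSO 1, DMSO 3, PD 0332991 array 1 or 2, adjusted p up to 0.134, and with the mean of clusters, 0.150, and VIM without DMSO 1, DMSO 2, PD 0332991 array 1 or 2, adjusted p up to 0.0874, and after quantile normalization, 0.0710). The luminal prostate genes KLK2, KLK3 and TMPRSS2, which PC-3 cells express little, lay below the median, and no leukocyte marker of 5 lay above it. Of the 5 fibroblast and 5 endothelial markers measured, PDGFRA and KDR were above it, and no marker of these 3 lists or of the luminal genes passed the threshold by limma or had an unadjusted p under 0.05. The labels do not state whether samples of a group were separate cultures, and the p-values therefore cover the spread among these samples, possibly a technical one.

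The upstream sequences of the 2 members with the largest positive changes, IGFBP5 and IGFBP6, are shown because these secreted proteins are the ones the results turn on. Each window runs from 250 bases before to 50 bases after the gene's start, from RefSeq (GRCh38.p14), 5′ to 3′ on the gene's own strand, and capitals mark matches to the motifs searched. IGFBP5 lies at chr2:216695500-216695799 on the minus strand and IGFBP6 at chr12:53097417-53097716 on the plus strand.
IGFBP5: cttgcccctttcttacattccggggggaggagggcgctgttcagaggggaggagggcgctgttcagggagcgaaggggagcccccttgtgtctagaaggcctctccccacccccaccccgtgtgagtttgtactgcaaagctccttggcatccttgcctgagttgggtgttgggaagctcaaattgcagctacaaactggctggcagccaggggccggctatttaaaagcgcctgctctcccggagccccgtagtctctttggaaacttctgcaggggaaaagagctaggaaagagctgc
IGFBP6: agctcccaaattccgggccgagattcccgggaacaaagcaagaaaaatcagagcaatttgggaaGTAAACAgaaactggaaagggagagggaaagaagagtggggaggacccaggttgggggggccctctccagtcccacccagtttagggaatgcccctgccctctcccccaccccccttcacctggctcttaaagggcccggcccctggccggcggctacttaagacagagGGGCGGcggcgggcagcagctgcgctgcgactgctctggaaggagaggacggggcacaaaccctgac
The letters searched, on both strands, were TTTNNCGC for E2F factors and TTTGAA for the cell cycle homology region, or CHR. FOXO factors were represented by GTAAACA, the TATA box by TATAAA and the GC box by GGGCGG. The IGFBP5 window held none of the 5. In the IGFBP6 window, the capitals mark 1 FOXO match and 1 GC box match, which do not overlap. Of all 35116 RefSeq windows, 3.42% held the FOXO letters and 45.0% the GC box, 6.89% the E2F letters, 15.2% the CHR and 11.5% the TATA box. Windows were at hand for 8 of the 10 members, 10 windows in all because IGFBP2 has 3. The E2F letters were in the windows of IGF1R and INSR, the CHR in 1 of the IGFBP2 windows, the TATA box in that of IGFBP4, and the GC box in 8 of the 10 windows. A match of this kind describes the letters only.

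IGFBP5, which binds IGFs with high affinity and attaches to extracellular matrix, was the member with the largest change. Its log2 expression was 9.16, 9.32 and 9.38 on the 3 PD 0332991 arrays, against 8.56, 8.47 and 8.51 on the 3 DMSO arrays. Every PD 0332991 array lay above every DMSO array, with a gap of 0.61 between the groups, while the arrays within a group differed far less. The means were 9.29 ± 0.111 with PD 0332991 and 8.51 ± 0.043 with DMSO (SD, n = 3 each), a log2 change of 0.77 ± 0.064 (SE) or 1.71-fold. By size, this change had rank 33 among the rises of all 22375 genes. IGFBP5 was picked for its rise on these arrays, so the gap, SE and rank describe that choice and do not test it. In bulk RNA a larger share of cells expressing a gene and more RNA per cell cannot be told apart.

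IGFBP6, which prefers IGF2 over IGF1 as ligand, was the only binding protein tested that passed the threshold. It had 8.18, 8.12 and 7.88 with PD 0332991, against 7.72, 7.58 and 7.77 with DMSO. The groups did not overlap, but PD 0332991 array 3 stood only 0.11 above the highest DMSO array. The means of 8.06 ± 0.161 with PD 0332991 and 7.69 ± 0.101 with DMSO (SD, n = 3 each) gave a log2 change of 0.37 ± 0.091 (SE), 1.29-fold, with a limma adjusted p = 0.0465. IGFBP6 thus rose past the threshold of an adjusted p under 0.05, narrowly. The call was lost without DMSO 1 (adjusted p = 0.107), DMSO 2 (0.137), DMSO 3 (0.0777), PD 0332991 array 1 (0.133) or PD 0332991 array 2 (0.135), and was kept without PD 0332991 array 3 (0.0170). It was also lost with the replicate number as a block (limma adjusted p = 0.0970).

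**Figure D1:**
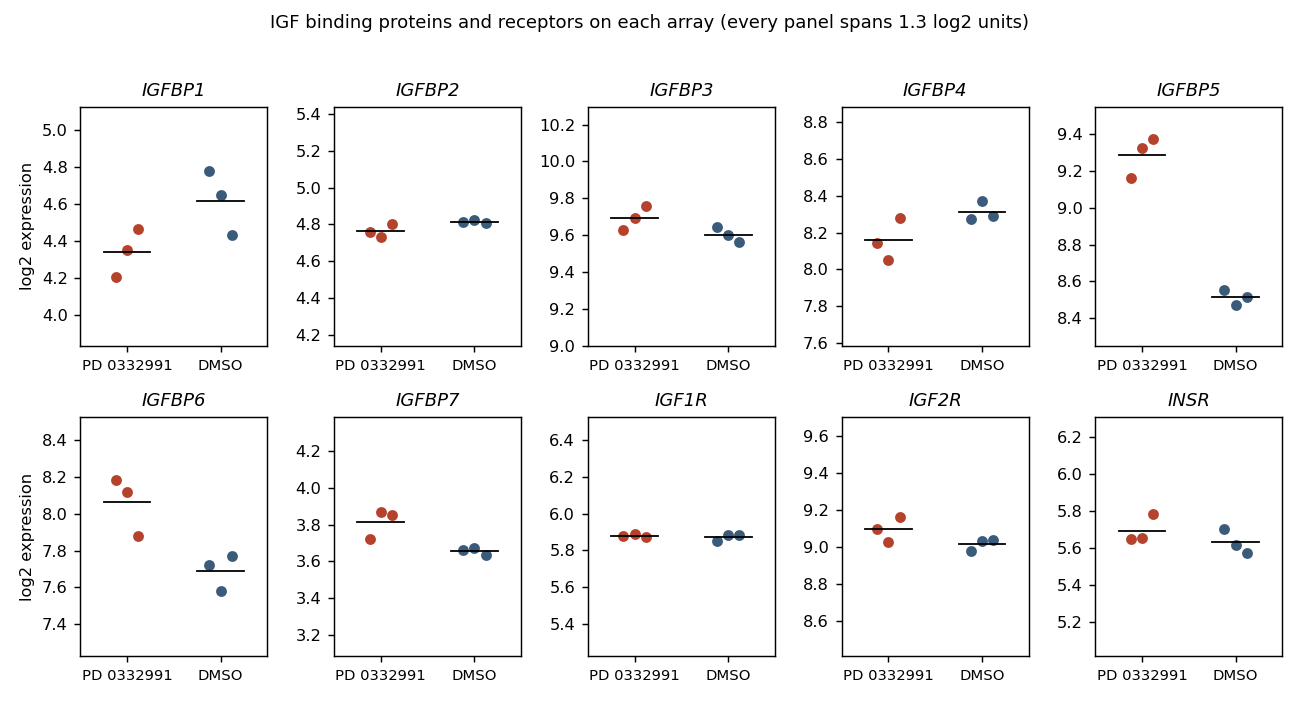
Log2 expression of the 10 genes on each array, PD 0332991 left of DMSO; points are arrays, horizontal bars are means of 3, and every panel spans the same number of log2 units. IGFBP5 shows the widest separation, with PD 0332991 arrays at 9.16 to 9.38 and DMSO arrays at 8.47 to 8.56, and IGF1R stays within 5.85 to 5.89 on all arrays.

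IGFBP3, the main IGF carrier of serum and known for growth-restraining actions of its own, had 9.63, 9.69 and 9.76 with PD 0332991, against 9.65, 9.60 and 9.56 with DMSO. The groups overlapped, and the change of 0.09 (95% interval -0.03 to 0.21, adjusted p = 0.353) did not pass the threshold. The upper end of the interval is 1.16-fold.

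IGFBP4, which mostly inhibits IGF action and is cleaved by the protease PAPPA, had 8.15, 8.05 and 8.28 with PD 0332991, against 8.27, 8.37 and 8.29 with DMSO. PD 0332991 array 3 lay among the DMSO arrays, and the change of -0.16 (95% interval -0.31 to 0.00, adjusted p = 0.220) did not pass. In the RefSeq order of protein-coding genes, IGFBP4 sits beside TOP2A on chromosome 17, a neighbour named after its value was seen, which averaged 8.83 ± 0.157 with PD 0332991 and 12.83 ± 0.117 with DMSO. The difference between its groups was thus many times that of IGFBP4.

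The 3 other binding proteins were dim on these arrays, their mean levels lying below the median of all genes. IGFBP1, which is made mainly in liver and endometrium and follows insulin, had 4.20, 4.35 and 4.47 with PD 0332991, against 4.78, 4.65 and 4.43 with DMSO. The groups overlapped through PD 0332991 array 3 and DMSO 3, and the change of -0.28 ± 0.103 (SE; adjusted p = 0.157, unadjusted p = 0.0317) did not pass. IGFBP7, a weak IGF binder of vessel walls and matrix, had 3.72, 3.87 and 3.85 with PD 0332991, against 3.66, 3.67 and 3.64 with DMSO. All PD 0332991 arrays were above the DMSO arrays, by a gap of 0.05, and the change of 0.16 ± 0.052 (SE) had an adjusted p = 0.113 and an unadjusted p = 0.0193. IGFBP2, often raised in prostate tumours, had 4.76, 4.73 and 4.80 with PD 0332991, against 4.81, 4.83 and 4.81 with DMSO. Its groups were apart by 0.0033 only, and the change of -0.05 (95% interval -0.15 to 0.05, adjusted p = 0.545) did not pass. At such levels, from the percentile 10.5 of all genes for IGFBP7 to 42.7 for IGFBP2, small changes are hard to measure, and detection calls are not given.

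The family forms gene pairs in the genome, IGFBP2 beside IGFBP5 on chromosome 2 and IGFBP1 beside IGFBP3 on chromosome 7, with no other protein-coding gene between them in the RefSeq order. Changes within these pairs were -0.05 for IGFBP2 and 0.77 for IGFBP5, and -0.28 for IGFBP1 and 0.09 for IGFBP3. On its other side IGFBP5 is flanked by TNP1, a sperm chromatin gene named here for its position, whose change was 0.11 (adjusted p = 0.668). IGFBP6 lies between SPRYD3, with a change of 0.15 (adjusted p = 0.115), and the sterol acyltransferase gene SOAT2, with a change of 0.02 (adjusted p = 0.822). On the other side of IGFBP3 is TNS3, a tensin of focal adhesions, which averaged 8.94 ± 0.027 with PD 0332991 and 8.78 ± 0.016 with DMSO (SD, n = 3 each) and rose by 0.17 (limma adjusted p = 0.0406). Beside IGF1R on chromosome 15 is the arrestin family gene ARRDC4, which averaged 6.36 ± 0.042 with PD 0332991 and 6.04 ± 0.104 with DMSO and rose by 0.32 (limma adjusted p = 0.0190). Of the 13 measured genes that flank a member and are not members themselves, 2 rose, 1 fell (TOP2A) and 10 did not pass. By limma 11.3% of all genes passed in either direction, and TOP2A was already named above as a gene of the drug response. The TNS3 call was lost without any 1 of the 6 arrays (adjusted p 0.0792 to 0.118) and with median centring (0.178), and that of ARRDC4 without any 1 of the PD 0332991 arrays (0.0517 to 0.0678).

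The receptors differed little between the groups. Levels of IGF1R and INSR were near the median gene, at percentiles 55.5 and 53.4, and detection calls are not given for them either. IGF1R had 5.88, 5.89 and 5.87 with PD 0332991, against 5.85, 5.88 and 5.88 with DMSO. These were the closest groups of any member, with a change of 0.01 and a 95% interval of -0.08 to 0.10 (adjusted p = 0.940), which is 0.944-fold to 1.07-fold. The sign of this change turned with quantile normalization (-0.0072) and with median centring (-0.02). INSR had 5.65, 5.65 and 5.78 with PD 0332991, against 5.70, 5.62 and 5.57 with DMSO. The groups overlapped, and the change of 0.06 had a 95% interval of -0.07 to 0.20 (adjusted p = 0.584). IGF2R had 9.10, 9.03 and 9.16 with PD 0332991, against 8.98, 9.03 and 9.04 with DMSO. Here too the groups overlapped, through PD 0332991 array 2, and the change of 0.08 had a 95% interval of -0.04 to 0.20 (adjusted p = 0.422).

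Changes of the receptors were also set against each other on the same arrays, in 3 pairs. IGF1R minus INSR came to -0.06 (95% interval -0.25 to 0.13, two-sided exact permutation p = 0.5, adjusted over the pairs 0.75). IGF1R minus IGF2R came to -0.07 (-0.20 to 0.06, exact permutation p = 0.3, adjusted 0.75), and INSR minus IGF2R to -0.01 (-0.19 to 0.16, exact permutation p = 0.9, adjusted 0.9). No difference between receptors passed the threshold, and 3 arrays against 3 cannot give a p below 0.1.

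Counted over the members other than IGFBP5, 1 of 9 rose, IGFBP6, and none fell, with 8 not past the threshold. By limma 11.3% of all genes passed, 5.57% higher and 5.74% lower, so 1 of 9 is close to the background. With arrays centred on the median, 37.5% of the genes past the threshold were higher, against 49.3% without it. At an unadjusted p under 0.05, 2 of the 9 were higher and 1 was lower, against 24.0% of all genes in either direction. Limma-trend and array weights each called 1 of the 9, against 2711 and 2676 of all 22375 genes. The groups did not overlap for 4 of all 10 members, IGFBP5, IGFBP6 and IGFBP7 higher and IGFBP2 lower, against 29.9% of all genes, and IGFBP5 was chosen for being one. The median change over the 10, which include IGFBP5 with the rise it was picked for, was 0.07, against 0.02 over all genes.

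**Figure D2:**
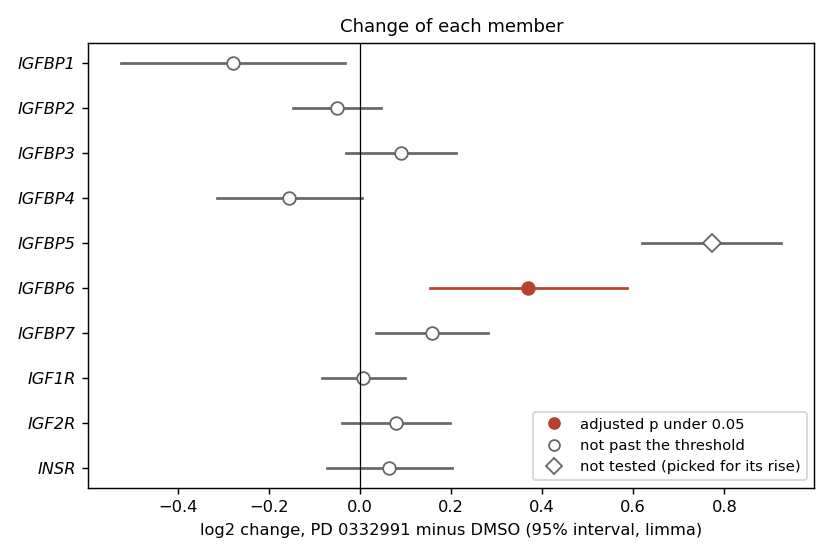
Log2 change of each gene, PD 0332991 minus DMSO, with limma's 95% interval; the filled circle passed an adjusted p under 0.05, open circles did not, and the diamond marks IGFBP5, which was not tested. IGFBP5 stands at 0.77 and IGFBP6 at 0.37, and the receptor intervals all include 0. The interval of IGFBP5 takes no account of its having been picked for its rise.

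Among 30 of the 33 listed ligands, carriers, scavenger receptors and proteases around the binding proteins, 3 rose and 1 fell. The median change was 0.04, and over all genes 11.3% passed by limma in either direction. IGF2, INS and SORT1 were not analysed here. The ligand IGF1 was dim, with 4.20 ± 0.050 with PD 0332991 and 4.15 ± 0.102 with DMSO (SD, n = 3 each; limma adjusted p = 0.677), and its change of 0.05 turned to -0.0036 without DMSO 1. PAPPA, which cleaves IGFBP4 and IGFBP5, was dim as well, with 4.38 ± 0.050 with PD 0332991 and 4.41 ± 0.033 with DMSO. STC1, a stanniocalcin known to inhibit PAPPA, fell, with 7.49, 7.51 and 7.76 with PD 0332991 against 8.21, 8.02 and 7.86 with DMSO. Its groups did not overlap, and its change was -0.44 ± 0.108 (SE, adjusted p = 0.0445).

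PLAT, tissue plasminogen activator, had 16.55, 16.51 and 16.56 with PD 0332991, against 15.87, 15.97 and 15.97 with DMSO. It rose 1.52-fold (adjusted p = 0.000372), with all PD 0332991 arrays far above the DMSO arrays. LRP1, an endocytic receptor that binds IGFBP3 among many ligands, averaged 8.70 ± 0.023 with PD 0332991 and 8.23 ± 0.062 with DMSO and rose 1.38-fold (adjusted p = 0.00125). MMP1, an interstitial collagenase that can cleave binding proteins, averaged 7.17 ± 0.155 with PD 0332991 and 6.74 ± 0.073 with DMSO and rose 1.36-fold (adjusted p = 0.0183). The MMP1 call was lost without DMSO 1, DMSO 2, PD 0332991 array 1 or PD 0332991 array 3 (adjusted p 0.0559 to 0.0684), and that of STC1 without DMSO 1, DMSO 2, PD 0332991 array 1 or PD 0332991 array 2 (0.107 to 0.136) and after quantile normalization (0.0611).

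Other secreted or membrane proteins that carry an IGFBP-like domain went both ways: of 13 measured, 3 rose and 2 fell. The median change was 0.09. By limma 11.3% of all genes passed in either direction, and this list was not tested as a set. CCN2, the connective tissue growth factor, ran from 7.97 to 8.35 with PD 0332991, against 7.53 to 7.65 with DMSO. It rose by 0.50 ± 0.102 (SE, adjusted p = 0.0227), and PD 0332991 array 3 was the highest by some distance. CCN1, a matrix protein of the same family, rose by 0.27 ± 0.043 (adjusted p = 0.00933), and CCN3 by 0.28 ± 0.070 (adjusted p = 0.0467). CRIM1, a membrane protein that binds bone morphogenetic proteins, had 9.09, 9.13 and 9.15 with PD 0332991, against 9.50, 9.53 and 9.46 with DMSO, and fell by 0.37 (adjusted p = 0.00240). ESM1, the proteoglycan endocan, averaged 12.12 ± 0.026 with PD 0332991 and 12.39 ± 0.071 with DMSO and fell by 0.27 (adjusted p = 0.0155). The CCN2 call was lost without DMSO 1, DMSO 2 or DMSO 3 (adjusted p 0.0626 to 0.0799), that of ESM1 without PD 0332991 array 1 (0.0596) or PD 0332991 array 2 (0.0561), and that of CCN3 without any 1 of the 6 arrays (0.0573 to 0.122) and with median centring (0.112).

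Downstream of the receptors, 5 of 48 measured signalling genes rose and 5 fell, and the median change was -0.0065. Over all genes 5.57% rose and 5.74% fell by limma, and the list was not tested as a set. A further 5 listed genes were not analysed here. SHC1, an adaptor that links receptors to RAS, had 10.20, 10.26 and 10.25 with PD 0332991, against 9.80, 9.77 and 9.77 with DMSO. It rose 1.37-fold (adjusted p = 0.000684), with narrow groups that lay well apart. SOCS3, a feedback inhibitor of cytokine and insulin signalling, rose by 0.40 ± 0.080 (SE, adjusted p = 0.0223). RHEB, the GTPase that activates mTORC1, had 9.41, 9.41 and 9.32 with PD 0332991, against 9.77, 9.85 and 9.81 with DMSO, and fell by 0.43 (adjusted p = 0.00197). AKT1, a kinase that carries the survival signal, averaged 10.66 ± 0.021 with PD 0332991 and 10.93 ± 0.074 with DMSO and fell by 0.28 (adjusted p = 0.0150). ENPP1, a membrane phosphodiesterase that can inhibit the insulin receptor, averaged 9.90 ± 0.0999 with PD 0332991 and 10.22 ± 0.008 with DMSO and fell by 0.31 (adjusted p = 0.0156).

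The receptor substrates IRS1 and IRS2, the docking proteins of both kinases, did not pass the threshold. IRS1 had 7.99, 7.92 and 8.15 with PD 0332991, against 8.36, 8.18 and 8.02 with DMSO, and the groups overlapped (change -0.17, 95% interval -0.40 to 0.06). IRS2 was dim and spread, with 4.72 ± 0.187 with PD 0332991 and 4.83 ± 0.234 with DMSO. The AKT1 call was lost without DMSO 2, DMSO 3, PD 0332991 array 1 or PD 0332991 array 2 (adjusted p 0.0529 to 0.0613) and after quantile normalization (0.0515), that of ENPP1 without DMSO 1, DMSO 2 or DMSO 3 (0.0527 to 0.0553), and that of SOCS3 without DMSO 2 or any of the PD 0332991 arrays (0.0544 to 0.0724). Over the list, 2 to 5 genes passed with 1 array left out, in place of 10, the fewest without DMSO 2.

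The listed FOXO transcription factors and genes they are known to activate gave no call. Of 23 measured, none passed by limma, and none by limma-trend or array weights. Over all 22375 genes, 11.3% passed by limma, 2711 genes by limma-trend and 2676 with array weights. At an unadjusted limma p under 0.05, 3 of the list were higher and 1 was lower. These are 17.4% of the list, against 24.0% of all genes. FOXO1 averaged 5.27 ± 0.050 with PD 0332991 and 5.16 ± 0.108 with DMSO (SD, n = 3 each), and FOXO3 averaged 7.28 ± 0.066 with PD 0332991 and 7.26 ± 0.113 with DMSO. The FOXO3 change of 0.02 turned to -0.0077 with median centring and to -0.01 with array weights. The list's changes ran from -0.15 to 0.20 with a median of 0.05, against 0.02 over all genes. With dim genes left out, 1 of the list passed, while 3312 of 11188 genes passed in that fit. Without PD 0332991 array 2, 1 of the list passed, against 1663 of 22375 genes. Of the members, the list holds INSR and not IGFBP1, whose change was -0.28 (limma adjusted p = 0.157).

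Of the 3 IGF2 mRNA-binding proteins, which bind transcripts in the cytoplasm and share only a name with the secreted proteins, IGF2BP2 rose. It had 10.85, 10.92 and 11.03 with PD 0332991, against 10.63, 10.66 and 10.56 with DMSO, a change of 0.32 ± 0.059 (SE, adjusted p = 0.0166). IGF2BP3 averaged 6.88 ± 0.064 with PD 0332991 and 6.78 ± 0.013 with DMSO and did not pass (change 0.09). IGF2BP1 averaged 4.45 ± 0.057 with PD 0332991 and 4.45 ± 0.064 with DMSO (change -0.00076). The IGF2BP2 call was lost without DMSO 1 (adjusted p = 0.0511), DMSO 3 (0.0583) or PD 0332991 array 2 (0.0527). Among all genes 5.57% rose and 5.74% fell by limma, and these 3 were not tested as a set.

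**Figure D3:**
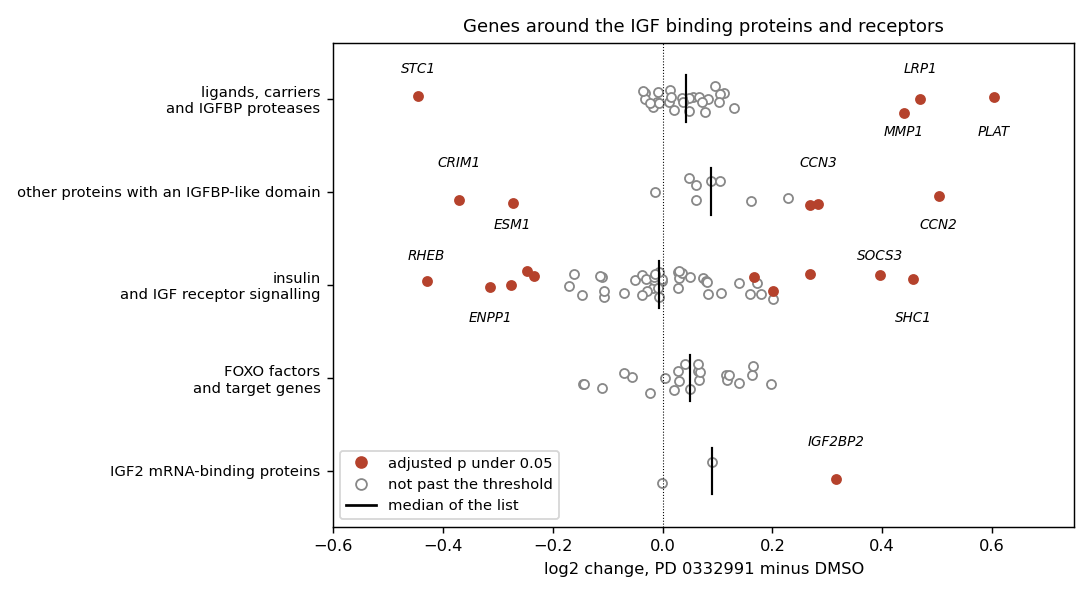
Log2 change, PD 0332991 minus DMSO, of each measured gene in 5 lists around the family, 1 row per list; filled points passed an adjusted p under 0.05, open points did not, and black bars are list medians. Called genes lie on both sides of 0 in 3 lists, from -0.44 for STC1 to 0.60 for PLAT, and no FOXO gene is called.

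Over the 6 arrays, 37 genes had a Pearson correlation above 0.99 with IGFBP5, a description only, since the points share their arrays and treatment and fall into 2 groups of 3. The 5 genes closest in pattern were NUDT12, PLCB4, SRP14-DT, CLDN1 and THBS3, with correlations of 0.998, 0.998, 0.997, 0.997 and 0.997. NUDT12, a NAD-cap hydrolase, had 9.22, 9.29 and 9.33 with PD 0332991, against 8.92, 8.89 and 8.93 with DMSO. CLDN1, a tight junction claudin, had 6.75, 6.85 and 6.91 with PD 0332991, against 6.26, 6.24 and 6.30 with DMSO. Like IGFBP5, both were lowest on array 1 among the PD 0332991 arrays and lowest on DMSO 2 among the DMSO arrays. Choosing genes by this correlation favours such a likeness. PLCB4, a phospholipase C, averaged 11.16 ± 0.082 with PD 0332991 and 10.62 ± 0.057 with DMSO, and the noncoding SRP14-DT averaged 7.79 ± 0.074 with PD 0332991 and 7.21 ± 0.050 with DMSO. THBS3, a thrombospondin, averaged 5.67 ± 0.022 with PD 0332991 and 5.46 ± 0.0006 with DMSO. Within the family, the correlation with IGFBP5 was 0.92 for IGFBP7 and 0.80 for both IGFBP3 and IGFBP6. It was -0.65 for IGFBP1, -0.70 for IGFBP4 and -0.72 for IGFBP2, and among the receptors it ran from 0.24 for IGF1R to 0.66 for IGF2R.

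The change of IGFBP5 stayed between 0.73 and 0.84 with any 1 array left out, and that of IGFBP6 between 0.31 and 0.46. For IGFBP5, picked on these same arrays, the range is a description and no test. Changes of IGFBP1 with 1 array left out ran from -0.37 to -0.20, and those of IGFBP4 from -0.22 to -0.10, without reaching the threshold (lowest adjusted p 0.0686 and 0.0868).

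**Figure D4:**
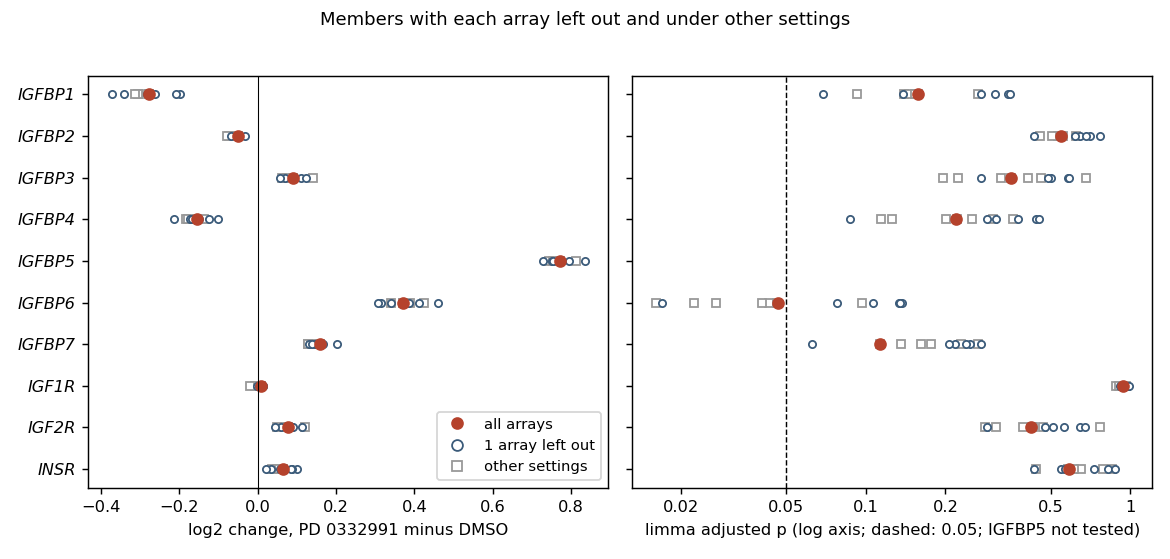
Left, log2 change of each member, PD 0332991 minus DMSO, with all arrays, with 1 array left out and under the other settings; right, limma's adjusted p on a log axis with the threshold of 0.05 dashed. IGFBP6 lies on both sides of the threshold, with adjusted p up to 0.137, and no other tested member falls below it.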

How the data were processed

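Expression was measured in total RNA of PC3-ML cells, 3 samples with PD 0332991 and 3 with DMSO. The deposited values, a single number for each transcript cluster on each array, were taken as log2 from their range (2.04 to 19.93); the authors' labels do not state the base. The submitters' processing notes name Expression Console and no version; normalization and genome build are not given in the sources used here. Of 65535 clusters, 22685 named 1 gene, 1385 several and 41465 none, by the platform's annotation (the row count is that of a full sheet in older spreadsheet programs, so further rows may be missing); symbols were updated by Entrez ID (20487 matched). The brightest single-gene cluster per gene was kept, which gave 22375 genes; each member has 1 cluster. No minimum level was set.

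PD 0332991 and DMSO were compared by limma 3.58.1 (R 4.3.3) (two-sided, Benjamini-Hochberg over all 22375 genes, threshold 0.05), a step tested on simulated data. Depth does not apply to arrays; their number limits precision. Receptor pairs used an exact permutation test, with intervals from a linear model. Members and lists were chosen with earlier results of these data known. Named genes were the members, in each list the genes past the threshold (the 5 with the smallest p where more than 5 passed), a set fixed by role, and the 5 genes most correlated with IGFBP5; flanking genes were added after values were seen. Alternatives were the replicate number as a block, quantile normalization, median centring, leaving out dim genes, the mean of clusters, limma-trend, array weights and leaving out each array. Same-numbered arrays did not deviate together (correlations 0.02, -0.01 and 0.04). This does not settle whether the numbers pair samples, since a small shared effect could go unseen.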

Additional observations from a re-analysis of the deposited data

How the results depend on the processing

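IGFBP5 and the 8 members other than IGF1R kept the direction of their change under every alternative run, which leaves out, for IGFBP1, IGFBP2 and IGFBP7, the fit without dim genes. IGF1R, with a change near 0, turned to -0.0072 with quantile normalization, -0.021 with median centring and between -0.0033 and 0.013 with 1 array left out; FOXO3 turned with median centring (-0.0077), with array weights (-0.013) and with 1 array left out (-0.041 to 0.070); IGF1 (-0.0036 to 0.089), IGF2BP1 (-0.035 to 0.032) and the difference INSR minus IGF2R (-0.054 to 0.042) did so with 1 array left out. Of the flanking genes, SOAT2 turned with quantile normalization (-0.0084), median centring (-0.0068) and 1 array left out (-0.0011 to 0.033), TNP1 with 1 array left out (-0.0011 to 0.20), and ZNF557 with median centring (-0.021), array weights (-0.027) and 1 array left out (-0.031 to 0.056). With the replicate number as a block, 786 genes were higher (1247 without it) and 954 were lower. In that fit 0 of the 9 tested members passed (IGFBP6 limma adjusted p = 0.0970), against 2 IGFBP-like genes, 5 signalling genes and 0 IGF2 mRNA-binding proteins. Calls lost in it included CCN2 (0.0613), ESM1 (0.0531), CCN3 (0.121) and IGF2BP2 (0.0588). Whether the numbers pair the samples is not stated in their titles. Median centring left 759 genes higher and 1264 lower, a share of 37.5% higher against 49.3%, and 5 signalling genes. With dim genes left out 1 FOXO gene passed, and 3312 of the 11188 genes tested in that fit. With 1 array left out, 716 to 815 genes were higher and 886 to 1042 lower, and counts were 0 to 1 of the tested members, 2 to 4 of the ligands, carriers and proteases, 3 to 4 of the IGFBP-like genes, 2 to 5 of the signalling genes, 0 to 1 of the FOXO genes and 0 to 1 of the IGF2 mRNA-binding proteins. With an array left out fewer samples enter the fit; for the other settings the cause was not tested. Over the 59 genes followed, 78 of 755 combinations of gene and setting lost a call and 0 gained one. The 755 include IGFBP5, which was not tested, and genes with no call to lose, so the share lost among called genes is larger. Outside the 59 calls were gained: with dim genes left out 14 signalling genes passed, against 10. That fit called 3312 of 11188 genes, against 2531 of 22375 in the main fit, so calls were gained over all genes too. The dim members IGFBP1, IGFBP2 and IGFBP7 have no detection calls here, so their small changes are the least certain.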
